A study of Mus musculus with 27 samples.

Results

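Collagen genes encode the chains of the triple-helical proteins that give the extracellular matrix its strength. They were taken as every protein-coding gene whose GENCODE M21 symbol is Col, digits, the letter a and digits, which gave 44 of the 51789 gene IDs of the deposited count table. By class they were 11 fibrillar chains, 6 chains of type IV, 6 of type VI, 9 FACIT chains (fibril-associated collagens with interrupted triple helices), 3 short-chain network collagens, 2 multiplexins, 4 transmembrane collagens and 3 others. The genes lie on 15 chromosomes, and 43 of them had at least 1 count, the exception being Col9a1.

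The data are gene counts from 3′ tag libraries of polyA RNA from mouse ovary, 27 libraries in 2 experiments. In experiment 1 the ovaries came from 5 young mice and 4 aged mice with no treatment, and from 4 further aged mice treated with TRi-1, which inhibits the selenoenzyme thioredoxin reductase 1. In experiment 2 they came from 5 young and 5 aged mice with no treatment and from 4 aged ones treated with the gold compound auranofin, likewise an inhibitor of thioredoxin reductases. The labels give no strain, age in weeks, dose or time of treatment, so the groups are known only as young, aged and treated, and the 2 drugs were given in different experiments. The labels number the mice as replicates and do not say whether they were littermates. Levels are CPM, counts per 1000000 counts of the library, after TMM scaling within an experiment, and values in each library are listed in replicate order. A gene is called higher or lower where edgeR's quasi-likelihood p, adjusted over all genes tested, is under 0.05. Library totals ran from 6460903 to 14814381 counts, of which 13175 to 84423 fell on collagen genes.

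Fibrillar collagens, led by types I, III and V, form the banded fibrils of the ovarian stroma and the fibrous outer coat. Type IV chains form the sheet-like network of basement membranes, among them the basal lamina that surrounds each follicle and the sheath of each blood vessel. Type VI chains form beaded filaments around cells, and FACIT chains sit on the surface of fibrils. In whole tissue, fewer cells of a type and less RNA per cell cannot be told apart, and that holds for every difference below.

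Col4a1 and Col4a2, which encode the chains of the commonest type IV molecule, stand head to head on mouse chromosome 8. In RefSeq (GRCm38.p6) their start sites lie 21 bases apart on opposite strands, so the promoter windows (250 bases before to 50 after the start) share 78 bases. Both are shown because Col4a2 had the smallest p of the collagen genes with age in experiment 1 and under TRi-1, and Col4a1 under auranofin, though neither passed under a drug, with capitals marking the GC box GGGCGG and the CCAAT box on either strand.
Col4a1 (chr8:11312777-11313076, minus strand): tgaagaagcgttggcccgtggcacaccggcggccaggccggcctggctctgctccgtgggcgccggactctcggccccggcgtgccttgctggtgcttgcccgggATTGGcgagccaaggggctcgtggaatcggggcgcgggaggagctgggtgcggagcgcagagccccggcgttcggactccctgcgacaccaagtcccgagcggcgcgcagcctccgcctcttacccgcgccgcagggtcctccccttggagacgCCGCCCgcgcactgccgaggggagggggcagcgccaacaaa
Col4a2 (chr8:11312555-11312854, plus strand): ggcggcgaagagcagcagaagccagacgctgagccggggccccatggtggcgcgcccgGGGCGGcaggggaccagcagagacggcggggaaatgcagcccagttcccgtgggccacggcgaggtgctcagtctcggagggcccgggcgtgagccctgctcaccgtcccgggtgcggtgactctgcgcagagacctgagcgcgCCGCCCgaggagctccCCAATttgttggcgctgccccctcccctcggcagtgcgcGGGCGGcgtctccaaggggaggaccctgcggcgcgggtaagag
The Col4a1 window holds 1 GC box and 1 CCAAT box, the Col4a2 window 3 and 1, and neither holds the letters TATAAA. No match overlapped another in these windows. Over 32851 promoter windows of the same length, 35.7% hold GGGCGG, 37.4% CCAAT and 13.6% TATAAA on either strand. Of the 38 windows of the 35 collagen genes with an entry, 23 (60.5%) held GGGCGG, 13 (34.2%) CCAAT and 5 (13.2%) TATAAA. Median GC content was 59.9% in the collagen windows and 52.7% in all. Entries for Col1a1, Col2a1, Col4a3, Col5a2, Col9a3, Col12a1, Col14a1, Col22a1 and Col26a1 were not used here.

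Collagen messages are also known for their 3′ ends, which carry many matches to the miR-29 family of microRNAs. The mature sequences from RefSeq are shown with the shared seed, bases 2 to 8, in capitals.
mmu-miR-29a-3p: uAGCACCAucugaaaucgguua
mmu-miR-29b-3p: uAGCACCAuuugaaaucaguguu
mmu-miR-29c-3p: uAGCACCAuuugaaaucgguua
The 7 letters that pair with this seed, TGGTGCT, were searched on the sense strand of the annotated 3′ UTR of 1 transcript per gene. They were present in 25 of 44 collagen genes (56.8%) and in 2738 of 20924 genes with a 3′ UTR (13.1%). Per 1000 bases of 3′ UTR there were 0.693 matches in collagen genes and 0.106 over all genes. In windows of equal length, the first 1000 bases of 3′ UTRs at least that long, 12 of 24 collagen genes (50%) and 10% of 10204 genes held a match. For some of the genes described below, the first match is given with its flanks, the 7 letters in capitals.
Col1a1 (chr11:94952530-94952552, plus strand): ggaatttcTGGTGCTatagaagc
Col3a1 (chr1:45348974-45348996, plus strand): tgtctcaaTGGTGCTataataaa
Col4a1 (chr8:11199754-11199776, minus strand): tcacaacaTGGTGCTactccccc
Col4a2 (chr8:11448351-11448373, plus strand): ggccacgtTGGTGCTtatccttc
Col4a5 (chrX:141688245-141688267, plus strand): cccaccaaTGGTGCTaatatcct
Col11a1 (chr3:114219075-114219097, plus strand): gatttcgtTGGTGCTgtagaaaa
Col4a5 held 3 matches, Col4a2 and Col11a1 2 each, and Col1a2, Col6a1 and Col6a5 none. Matches not shown include those of Col4a3 (4), Col4a4 (2) and Col5a2, Col6a2, Col6a3, Col8a1 and Col15a1 (1 each). The microRNAs themselves were not measured, and a match describes letters only.

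Some libraries stood apart and are named before the results. Young replicate 3 and auranofin replicate 3 of experiment 2 had 0 counts of the steroidogenic regulator Nr5a1 (3.12 to 39.2 CPM in the other 25 libraries). They held 3.52 and 0.294 CPM of the side-chain cleavage enzyme Cyp11a1, against at least 44.7 CPM elsewhere. Genes known from uterus were high in them: Sprr2f stood at 2637 and 315 CPM against at most 14.6, and Muc1 at 231 and 109 CPM against at most 22.0. Foxl2, an ovarian transcription factor that the uterus also makes, was present in both (43.0 and 7.25 CPM). Their steroidogenic markers thus went against the ovary label, and the calls of experiment 2 are given with and without both. Young replicate 1 of experiment 2 had the highest Hoxa10 of all libraries (255 CPM) but kept its ovary markers. Auranofin replicate 4 had the highest sum of 9 adipocyte markers (17125 CPM), and aged replicate 3 of experiment 1 the highest sum of 12 hepatocyte markers (3231 CPM). Oocyte markers, 12 genes summed, stood at 140.0 to 286 CPM in young and 6.23 to 11.0 CPM in aged libraries of experiment 1. Macrophage markers, 11 genes summed, stood at 694 to 1122 CPM in young and 5613 to 9086 CPM in aged libraries there, and at 726 to 1498 and 4839 to 8662 CPM in experiment 2. Their part in the collagen results was not tested.

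With age in experiment 1, 6 of 31 collagen genes tested rose and 6 fell (12 of 31, beside 34.9% of the 16028 genes tested, so a share near that of all genes). Members of a class moved in both directions. Of the fibrillar genes Col1a2, Col3a1 and Col11a1 fell and Col5a2 rose, and of the basement membrane chains of type IV Col4a1 and Col4a2 rose and Col4a4 and Col4a5 fell. Col6a1 and Col6a5 of beaded filaments and the short-chain gene Col8a1 rose, and the FACIT gene Col14a1 fell. By direction, 18.5% of all genes were higher and 16.4% lower. The median log2 fold change of the 31 was 0.22, beside 0.02 over all genes. DESeq2 called each of the 12 genes (37.8% of all genes called), while limma-voom did not call Col4a5, Col6a5 and Col8a1 (36.1%). In experiment 2, which shares no library with experiment 1, 1 collagen gene was higher and 3 were lower of 34 tested, beside 10.5% of 16309 genes (5.86% higher, 4.59% lower). These were Col6a5, higher, and Col11a1, Col4a4 and Col4a3, lower. Col4a3 passed the filter there only through its young libraries. The median of the 34 was -0.29, beside -0.03 over all genes. With the 2 libraries low in ovary markers left out, 2 were higher and 2 lower of 34, beside 12.3% of all genes, with Col24a1 gained and Col4a3 lost. DESeq2 called 6 of the 34 in experiment 2 (14.5% of all genes), the 4 named and also Col1a2 and Col6a6, both lower. Limma-voom called 5 (16.2% of all genes), the 4 and Col24a1.

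**Figure D1:**
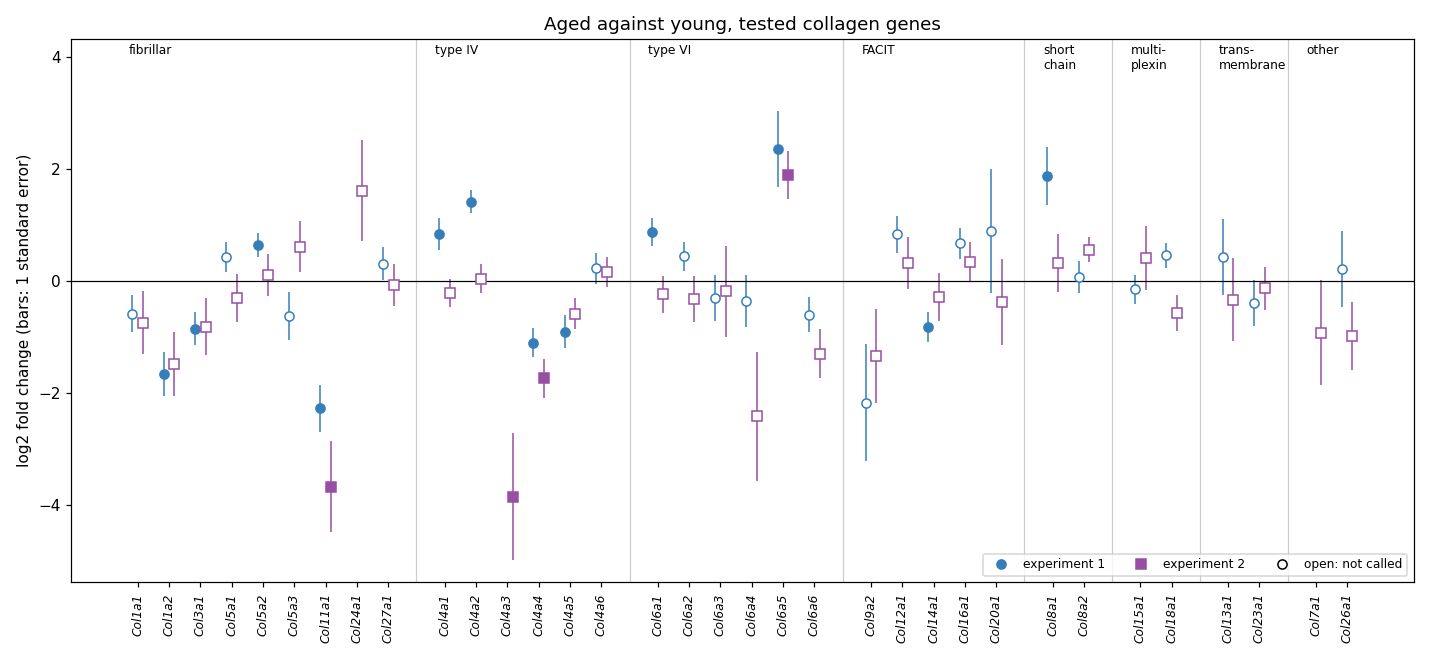
Log2 fold change of aged against young ovaries (vertical axis, bars 1 standard error) for each collagen gene tested, by class, in experiment 1 (circles) and experiment 2 (squares). Filled symbols passed edgeR's adjusted p of 0.05. Col11a1 and Col4a4 lie below 0 and Col6a5 above 0 with filled symbols in both experiments, and Col4a2 lies at 1.42 in experiment 1 and 0.05 in experiment 2.

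Of the 31 genes tested in both experiments, 20 had the same sign, 12 below 0 and 8 above. All 3 genes tested in both and called in experiment 2 were also called in experiment 1, with the same direction, and 10 of the 12 called in experiment 1 had the same sign in experiment 2. The exceptions were Col4a1 and Col6a1. Agreement between the experiments was not counted over all genes, so these counts are not read as particular to collagen genes. Tested as a difference between the 2 age effects over all 27 libraries, no collagen gene passed edgeR's threshold (0 of 35, beside 0% of 17484 genes). At an unadjusted p under 0.05 there were 4 (11.8% of all genes), and DESeq2 called 1 (0.881% of all genes) and limma-voom 0 (0.189%). The 4 were Col4a2 (-1.36 ± 0.34 SE, adjusted p = 0.122), Col4a1 (-1.04 ± 0.39 SE, adjusted p = 0.275), Col6a1 (-1.10 ± 0.43 SE, adjusted p = 0.292) and Col18a1 (-1.01 ± 0.41 SE, adjusted p = 0.311), each with the lower value in experiment 2. DESeq2 called Col4a2, at an adjusted p of 0.0297. Without the 2 libraries low in ovary markers edgeR again called none, beside 0.00557% of all genes.

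Type I collagen is the bulk protein of connective tissue, a heterotrimer of the products of Col1a1 and Col1a2. Col1a1 (ENSMUSG00000001506, chr11:94936224-94953042, plus strand) stood at 494, 521, 899, 762 and 665 CPM in young ovaries of experiment 1, 331, 247, 579.9 and 634 CPM in aged and 138, 449, 239 and 359 CPM with TRi-1. The values of experiment 2 were 2124, 1013, 2907, 532 and 447 CPM in young, 1159, 972, 978, 463 and 626 CPM in aged and 1057, 1281, 2419 and 225 CPM with auranofin. The groups overlapped in every comparison, and the highest libraries were young replicates 1 and 3 and auranofin replicate 3 of experiment 2. The log2 fold change with age was -0.58 ± 0.33 (SE, adjusted p = 0.191) in experiment 1 and -0.74 ± 0.56 (SE, adjusted p = 0.48) in experiment 2, called in neither.

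Col1a2 (ENSMUSG00000029661, chr6:4504814-4541544, plus strand) stood at 303, 270.4, 498, 436 and 382 CPM in young, 35.6, 123, 174 and 148 CPM in aged and 75.2, 131, 156 and 228 CPM in TRi-1 ovaries. Every aged ovary of experiment 1 lay below every young one, aged replicate 1 by far the lowest, and the TRi-1 libraries overlapped the aged. Experiment 2 gave 1369.8, 709, 2132, 450.0 and 369 CPM in young, 536, 296, 572, 144 and 262 CPM in aged and 517, 571, 773 and 77.7 CPM with auranofin. There the young and aged libraries overlapped. Col1a2 fell with age in experiment 1, with a log2 fold change of -1.65 ± 0.39 (SE, adjusted p = 0.00349). In experiment 2 it was -1.47 ± 0.58 (SE, adjusted p = 0.129), and -1.04 (adjusted p = 0.26) without young replicate 3 and auranofin replicate 3. DESeq2 called it there (-1.51, adjusted p = 0.0384) and limma-voom did not (-1.05, adjusted p = 0.136). Over both experiments it was -1.57 ± 0.38 (SE, adjusted p = 0.00182), and -1.33 (adjusted p = 0.00406) without those 2 libraries.

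The ratio of the 2 type I chains within a library does not depend on the scaling between libraries. As log2 of Col1a1 over Col1a2 counts, it was 0.70, 0.95, 0.85, 0.81 and 0.80 in young, 3.21, 1.01, 1.74 and 2.10 in aged and 0.88, 1.78, 0.61 and 0.66 in TRi-1 ovaries of experiment 1. Experiment 2 gave 0.63, 0.52, 0.45, 0.24 and 0.27 in young, 1.11, 1.72, 0.77, 1.68 and 1.25 in aged and 1.03, 1.17, 1.65 and 1.53 in auranofin ovaries. In both experiments every aged library had a higher ratio than every young library, while the treated groups overlapped the aged. The mean difference, aged minus young, was 1.19 in experiment 1 (exact permutation p = 0.0159, the smallest 4 against 5 allow) and 0.89 in experiment 2 (exact permutation p = 0.00794, the smallest 5 against 5 allow). Over the 24 tests of 6 ratios in 4 comparisons both had an adjusted p of 0.127, so neither passed, nor did any other, and 5 of the 24 had an unadjusted p under 0.05. Without young replicate 3 of experiment 2 the difference there was 0.89 (exact permutation p = 0.0159, adjusted p = 0.127). The counts of Col1a1 and Col1a2 come from 3′ ends of different base composition: GC over the last 1000 bases was 48.0% in Col1a1 and 38.1% in Col1a2.

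**Figure D2:**
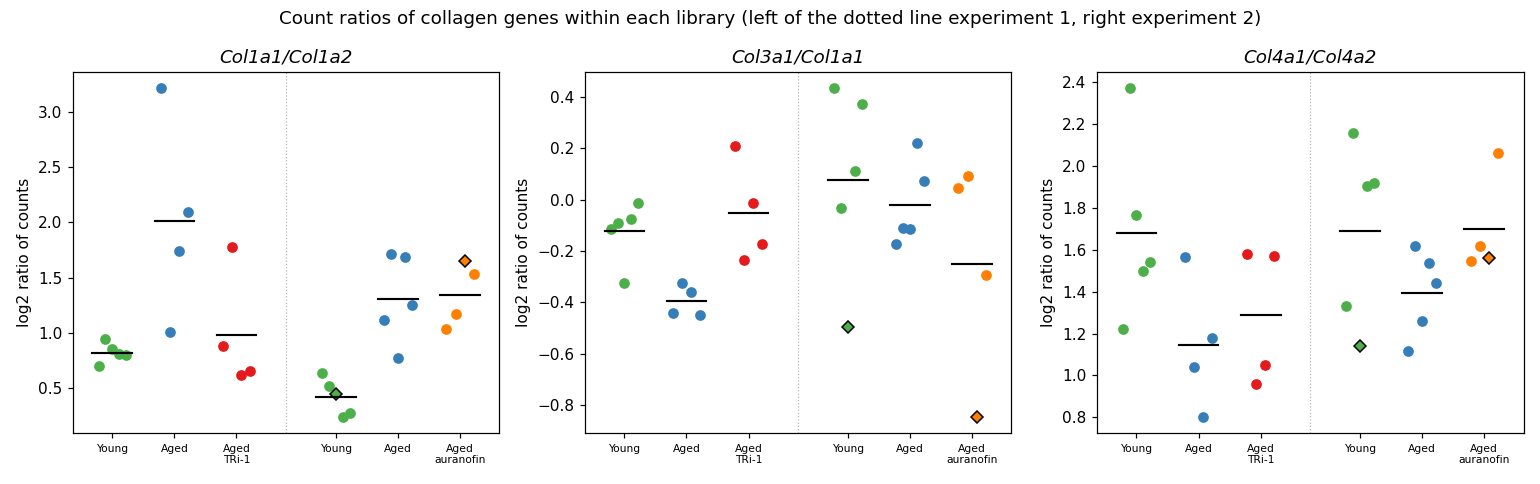
Log2 ratio of counts within each library for 3 pairs of collagen genes, with 1 symbol per library, a line at the group mean, and diamonds for the 2 libraries low in ovary markers. The Col1a1/Col1a2 ratio of every aged library lies above that of every young library of the same experiment, with means of 2.02 against 0.82 and 1.31 against 0.42.

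Col3a1 (ENSMUSG00000026043, chr1:45311538-45349706, plus strand) encodes the chain of type III collagen, which is found with type I in pliable tissues. It stood at 456, 490.0, 718, 723 and 658 CPM in young, 244, 197, 452 and 465 CPM in aged and 159.8, 382, 237 and 318 CPM in TRi-1 ovaries of experiment 1. Levels in experiment 2 were 2866, 991, 2060.3, 575 and 578 CPM in young, 1028, 899, 903, 539 and 658 CPM in aged and 1091, 1366, 1348 and 183 CPM in auranofin ovaries. Aged replicate 4 of experiment 1 lay just above the lowest young library, and in experiment 2 the groups overlapped widely. Col3a1 fell with age in experiment 1 (-0.84 ± 0.29 SE, adjusted p = 0.0338), and the value in experiment 2 was -0.81 ± 0.51 (SE, adjusted p = 0.373). The call in experiment 1 was lost without young replicate 3, 4 or 5 or aged replicate 1 or 2 (adjusted p = 0.061 to 0.098). With GC content and transcript length corrected, the log2 fold change was -0.51 (adjusted p = 0.221).

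The log2 ratio of Col3a1 to Col1a1 was -0.39 ± 0.06 in aged and -0.12 ± 0.12 in young ovaries of experiment 1 (SD, n = 4 and 5). These groups did not overlap (exact permutation p = 0.0159, adjusted p = 0.127). With TRi-1 it was -0.05 ± 0.20 (SD, n = 4), again with no overlap with the aged group, which this comparison shares (exact permutation p = 0.0286, the smallest 4 against 4 allow, adjusted p = 0.171). In experiment 2 it was -0.02 ± 0.16 in aged and 0.08 ± 0.37 in young ovaries, and those groups overlapped.

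Among the minor fibrillar chains, Col11a1 (ENSMUSG00000027966, chr3:114030540-114220718, plus strand), whose product helps to start and to limit the width of fibrils, had the lowest fitted fold of all collagen genes tested in experiment 1. Its levels were 23.0, 18.4, 25.4, 11.0 and 20.8 CPM in young, 5.43, 4.80, 3.72 and 2.41 CPM in aged and 3.27, 1.51, 2.03 and 7.06 CPM in TRi-1 ovaries. Libraries of experiment 2 held 20.4, 108, 4.03, 15.7 and 21.9 CPM in young, 0.29, 1.92, 2.97, 6.68 and 1.55 CPM in aged and 3.68, 2.91, 4.31 and 6.61 CPM with auranofin. All aged libraries lay below all young ones in experiment 1. In experiment 2 the sole overlap was young replicate 3, a library low in ovary markers, while young replicate 2 lay far above the other young libraries. Col11a1 fell with age in both experiments, with log2 fold changes of -2.27 ± 0.42 (SE, adjusted p = 0.000661) and -3.67 ± 0.81 (SE, adjusted p = 0.00854). The value of experiment 2 was -2.57 (adjusted p = 0.0259) without young replicate 2, -4.34 (adjusted p = 0.00736) without aged replicate 4 and -2.94 (adjusted p = 0.0245) with GC content and length corrected. Its value in experiment 2 without the 2 libraries low in ovary markers was -3.96 (adjusted p = 0.00273), and over both experiments -3.10. Granulosa cell markers were also lower with age, 6 of 10 tested in experiment 1 and 2 of 10 in experiment 2. Fshr and Amh were at 0 in both aged groups, though both were at or near 0 in the young libraries too. Oocyte markers were lower in 11 of 11 and 7 of 9, and proliferation markers in 8 of 10 and 3 of 10. Of all genes, 16.4% and 4.59% were lower. TRi-1 replicate 4 had the highest granulosa sum of all libraries (1369.8 CPM) with Col11a1 at 7.06 CPM. The part of these markers in the fall of Col11a1 was not tested.

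Col5a2 (ENSMUSG00000026042, chr1:45374321-45503282, minus strand), a chain of type V collagen that co-assembles with type I, stood at 28.4, 38.3, 27.1, 39.2 and 34.0 CPM in young, 45.2, 42.6, 55.2 and 66.7 CPM in aged and 22.9, 29.5, 45.4 and 30.0 CPM in TRi-1 ovaries of experiment 1. Aged ovaries all lay above young ones, and Col5a2 rose with age there, with a log2 fold change of 0.65 ± 0.21 (SE, adjusted p = 0.0257). That call was lost without young replicate 1 or 3 or aged replicate 3 or 4 (adjusted p = 0.0539 to 0.0969), and a gene model of the same strand that overlaps it, Gm38211, held 3799 counts over all libraries. Experiment 2 libraries held 107, 56.8, 92.4, 50.9 and 49.3 CPM in young, 109, 60.9, 95.9, 44.9 and 73.8 CPM in aged and 119.7, 119, 105 and 24.9 CPM with auranofin, with no call (0.11 ± 0.38 SE, adjusted p = 0.906). Its partner Col5a1 was called in neither experiment (0.43 ± 0.27 and -0.29 ± 0.43, SE), nor were Col5a3 (-0.62 ± 0.43 and 0.62 ± 0.46, SE) and Col27a1 (0.32 ± 0.30 and -0.06 ± 0.38, SE). Col24a1 was tested only in experiment 2 (1.62 ± 0.90 SE, adjusted p = 0.306). Its levels there were 1.65, 0, 5.41, 0.105 and 0.552 CPM in young, 4.14, 9.35, 2.23, 4.52 and 3.565 CPM in aged and 4.01, 7.39, 2.25 and 0.983 CPM with auranofin. Without the 2 libraries low in ovary markers it was called, at 2.93 (adjusted p = 0.0431). That fit leaves out young replicate 3, the highest young library, and Col24a1 passed its filter through the aged and auranofin libraries, where it was high.

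Type IV chains moved in both directions in experiment 1. Col4a2 (ENSMUSG00000031503, chr8:11312805-11449287, plus strand) stood at 44.7, 51.6, 75.7, 41.6 and 56.3 CPM in young, 141, 99.4, 154 and 184 CPM in aged and 67.3, 82.5, 82.5 and 70.8 CPM in TRi-1 ovaries. The values of experiment 2 were 98.5, 95.9, 141, 44.2 and 98.0 CPM in young, 97.9, 109, 105, 106 and 75.5 CPM in aged and 145, 151, 210.0 and 109 CPM with auranofin. The aged group of experiment 1 lay wholly above both the young and the TRi-1 groups, and in experiment 2 the auranofin group lay wholly above the aged one, by a narrow margin. Col4a2 rose with age in experiment 1, with a log2 fold change of 1.42 ± 0.21 (SE, adjusted p = 9.27e-05), the smallest adjusted p of the 31 collagen genes. In experiment 2 its value was 0.05 ± 0.26 (SE, adjusted p = 0.94).

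Col4a1 (ENSMUSG00000031502, chr8:11198423-11312826, minus strand) stood at 104, 268, 258, 118 and 164 CPM in young, 416, 204, 269 and 415 CPM in aged and 201, 161, 171 and 210.3 CPM in TRi-1 ovaries. Experiment 2 gave 248, 428, 309.6, 166 and 371 CPM in young, 212, 334, 252, 309.5 and 205 CPM in aged and 423, 465, 619.9 and 454 CPM with auranofin. Young and aged ovaries overlapped in both experiments, and all auranofin libraries lay above all aged ones. Col4a1 rose with age in experiment 1, with a log2 fold change of 0.84 ± 0.29 (SE, adjusted p = 0.0314), a call that was lost without young replicate 1, 4 or 5 or aged replicate 1 or 4 (adjusted p = 0.0652 to 0.0969). In experiment 2 the log2 fold change was -0.21 ± 0.25 (SE, adjusted p = 0.675). Endothelial markers also moved in experiment 1, where 7 of 13 were higher with age, beside 18.5% of all genes (275.9 to 384 CPM summed in young, 383 to 511 CPM in aged). In experiment 2, 0 of 13 endothelial markers passed, beside 10.5% of all genes. Their part in the type IV values was not tested.

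Col4a4 (ENSMUSG00000067158, chr1:82448423-82586849, minus strand) and Col4a3 (ENSMUSG00000079465, chr1:82586921-82722059, plus strand) lie head to head on chromosome 1 and encode, with Col4a5, the chains of another type IV network best known from the kidney filter. Col4a4 stood at 33.5, 39.95, 49.4, 38.4 and 39.3 CPM in young, 31.5, 11.9, 13.7 and 18.2 CPM in aged and 21.6, 26.99, 30.5 and 22.8 CPM in TRi-1 ovaries of experiment 1. Levels in experiment 2 were 45.2, 126, 72.2, 44.5 and 64.5 CPM in young, 11.98, 16.9, 16.8, 26.9 and 33.4 CPM in aged and 22.4, 20.6, 39.8 and 42.3 CPM with auranofin. Every aged library lay below every young one in each experiment. Col4a4 fell with age, with a log2 fold change of -1.09 ± 0.25 (SE, adjusted p = 0.00351) in experiment 1 and -1.73 ± 0.35 (SE, adjusted p = 0.00526) in experiment 2, and the latter was -1.74 (adjusted p = 0.0065) without the 2 libraries low in ovary markers. With GC content and length corrected, the call in experiment 1 was lost (-0.64, adjusted p = 0.069) and that in experiment 2 was not (-1.31, adjusted p = 0.0239).

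Col4a3 had 199 counts in all and, of the 2 experiments, passed the filter in experiment 2 alone. It did so through the young libraries, the group where it was high. It stood at 0.44, 1.73, 7.17, 1.68 and 1.29 CPM in young, 0.218, 0, 0, 0.589 and 0 CPM in aged and 0.654, 0.142, 0.686 and 0.0894 CPM with auranofin there, and at no more than 1.90 CPM in experiment 1. Aged replicates 2, 3 and 5 had no count, young replicate 3 was far above the rest, and young replicate 1 lay within the aged range. It was called lower with age, with a log2 fold change of -3.84 ± 1.13 (SE, adjusted p = 0.0406), a call that cannot be parted from the way it passed the filter. Without the 2 libraries low in ovary markers it was not called (-2.94, adjusted p = 0.124), nor without aged replicate 1, 2, 3 or 5 or auranofin replicate 1 (adjusted p = 0.0522 to 0.0863). C430014B12Rik, which overlaps it on the other strand, held 26 counts, and the strand setting of the counting is not given in the sources used here.

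Col4a5 (ENSMUSG00000031274, chrX:141475385-141689234, plus strand) stood at 8.29, 4.45, 8.81, 8.53 and 10.8 CPM in young, 4.10, 3.29, 5.50 and 4.60 CPM in aged and 6.16, 9.25, 7.62 and 6.86 CPM in TRi-1 ovaries. Libraries of experiment 2 held 16.95, 11.8, 15.4, 18.8 and 13.98 CPM in young, 11.8, 9.90, 11.0, 7.66 and 11.2 CPM in aged and 13.99, 14.4, 9.41 and 5.54 CPM with auranofin. In experiment 1 all but young replicate 2 lay above the aged libraries, and the TRi-1 libraries all did. In experiment 2 the one young library inside the aged range was replicate 2. Col4a5 fell with age in experiment 1, with a log2 fold change of -0.90 ± 0.30 (SE, adjusted p = 0.0283), and its value in experiment 2 was -0.58 ± 0.27 (SE, adjusted p = 0.218). The call was lost without young replicate 5 or aged replicate 1, 2 or 4 (adjusted p = 0.0529 to 0.0759), and with GC content and length corrected (-0.48, adjusted p = 0.251). Its neighbour Col4a6 was called in neither experiment (0.23 ± 0.27 and 0.17 ± 0.27, SE).

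Of type VI, Col6a1 (ENSMUSG00000001119, chr10:76708792-76726168, minus strand) and Col6a2 (ENSMUSG00000020241, chr10:76595762-76623630, minus strand) encode the short chains of the common molecule and Col6a3 (ENSMUSG00000048126, chr1:90765923-90843971, minus strand) the long one. Col6a1 stood at 102, 85.5, 152, 144 and 109.8 CPM in young, 223, 171, 272 and 206 CPM in aged and 75.4, 177, 88.8 and 111 CPM in TRi-1 ovaries. Levels in experiment 2 were 176, 213, 526, 128 and 147 CPM in young, 211, 197, 161, 241 and 205 CPM in aged and 248, 177, 297 and 216 CPM with auranofin. Aged ovaries all lay above young ones in experiment 1, TRi-1 replicate 2 alone reached the aged range, and young replicate 3 was the highest library of experiment 2. Col6a1 rose with age in experiment 1, with a log2 fold change of 0.88 ± 0.25 (SE, adjusted p = 0.0114) and stood at -0.23 ± 0.33 (SE, adjusted p = 0.742) in experiment 2. The call was lost without aged replicate 3 (0.70, adjusted p = 0.0501) and with GC content and length corrected (0.51, adjusted p = 0.081). Over both experiments Col6a1 was not called (0.32 ± 0.21 SE, adjusted p = 0.256), but it was without the 2 libraries low in ovary markers (0.58, adjusted p = 0.00554).

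Col6a2 stood at 140.3, 156, 229, 187 and 168 CPM in young, 255, 172, 248 and 284 CPM in aged and 96.6, 242, 95.4 and 123 CPM in TRi-1 ovaries. The values of experiment 2 were 254, 201, 614, 121 and 141 CPM in young, 234, 254, 151, 238 and 191 CPM in aged and 248, 207, 476 and 149 CPM with auranofin. The groups overlapped in each comparison, and neither age value was called (0.44 ± 0.26 SE, adjusted p = 0.204 and -0.32 ± 0.41 SE, adjusted p = 0.711).

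Col6a3 spread widely between libraries. It stood at 86.2, 130.2, 71.5, 192 and 120.3 CPM in young, 22.4, 107, 93.0 and 169 CPM in aged and 97.7, 86.1, 151 and 113 CPM in TRi-1 ovaries of experiment 1. Experiment 2 gave 437, 28.9, 343, 120.0 and 59.0 CPM in young, 362, 91.9, 198, 59.0 and 161 CPM in aged and 330.4, 354, 719 and 11.1 CPM with auranofin. Auranofin replicates 3 and 4 were the highest and the lowest of all 27 libraries, and no comparison was called (age -0.30 ± 0.41 SE, adjusted p = 0.603 and -0.18 ± 0.81 SE, adjusted p = 0.93).

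Col6a5 (ENSMUSG00000091345, chr9:105856078-105960643, minus strand), a long chain that can take the place of the Col6a3 product, rose with age in both experiments. It stood at 2.15, 7.52, 3.28, 7.67 and 1.84 CPM in young, 58.7, 10.2, 14.5 and 10.1 CPM in aged and 44.4, 56.1, 35.9 and 4.02 CPM in TRi-1 ovaries of experiment 1. Levels in experiment 2 were 4.404, 7.69, 1.89, 4.84 and 4.41 CPM in young, 24.1, 16.2, 14.1, 20.4 and 11.7 CPM in aged and 30.3, 46.2, 8.72 and 19.4 CPM with auranofin. All aged libraries lay above all young ones in each experiment, aged replicate 1 of experiment 1 far above the other 3. The log2 fold change was 2.37 ± 0.68 (SE, adjusted p = 0.0129) and 1.90 ± 0.42 (SE, adjusted p = 0.0089), and over both experiments 2.13 ± 0.43 (SE, adjusted p = 0.000296). Without aged replicate 1 of experiment 1 the first of these was 1.36 (adjusted p = 0.0983). Limma-voom did not call Col6a5 in experiment 1 (1.86, adjusted p = 0.134), nor did edgeR with the replicate number as a block (1.74, adjusted p = 0.118). The value of experiment 2 was 1.68 (adjusted p = 0.00337) without the 2 libraries low in ovary markers. Of the other type VI chains, Col6a6 was called in neither experiment (-0.60 ± 0.31 SE, adjusted p = 0.15 and -1.29 ± 0.44 SE, adjusted p = 0.0754) but was lower over both (-0.95 ± 0.28 SE, adjusted p = 0.00843, or -0.61 and 0.0259 without those 2 libraries). With young replicate 1 of experiment 2 also left out, the call of Col6a6 over both was lost (-0.57, adjusted p = 0.0536). DESeq2 called Col6a6 in experiment 2 (-1.33, adjusted p = 0.0251). Col6a4 was not called (-0.36 ± 0.47 and -2.41 ± 1.15, SE), and its 459 and 275 CPM in the 2 libraries low in ovary markers stood beside at most 54.8 CPM in the other 25.

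**Figure D3:**
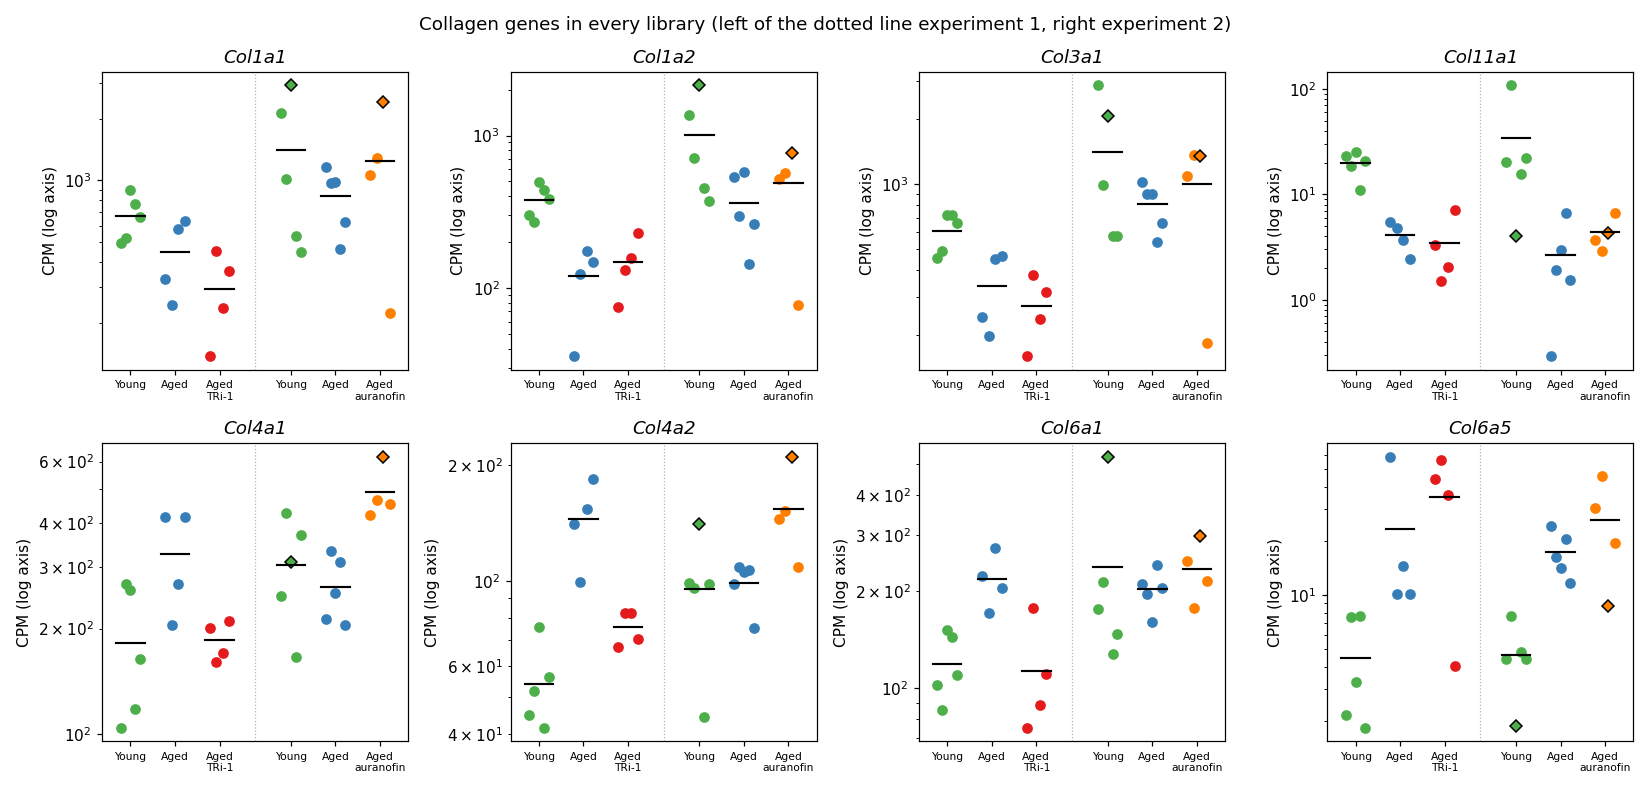
CPM on a log axis for 8 collagen genes, with 1 symbol per library, a line at the group mean, and diamonds for the 2 libraries of experiment 2 low in ovary markers. Aged symbols lie below young ones for Col1a2 and Col11a1 and above them for Col4a2, Col6a1 and Col6a5 in experiment 1, while in experiment 2 only Col6a5 of these 8 genes shows no overlap between young and aged.

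Of the short-chain collagens, Col8a1 (ENSMUSG00000068196, chr16:57624258-57754737, minus strand), made in vessel walls and remodelling tissue, stood at 4.401, 2.65, 4.15, 1.71 and 4.07 CPM in young, 12.7, 14.5, 1.52 and 21.3 CPM in aged and 5.87, 6.89, 4.32 and 9.31 CPM in TRi-1 ovaries. Aged replicate 3 lay below every young library, and the other 3 aged ones above all of them. Libraries of experiment 2 held 5.39, 5.02, 1.76, 6.21 and 8.09 CPM in young, 3.20, 5.22, 12.4, 8.94 and 3.57 CPM in aged and 1.80, 4.69, 6.57 and 1.43 CPM with auranofin. Col8a1 rose with age in experiment 1, with a log2 fold change of 1.88 ± 0.52 (SE, adjusted p = 0.00996), with 0.33 ± 0.52 (SE, adjusted p = 0.775) in experiment 2 and 1.10 ± 0.38 (SE, adjusted p = 0.0265) over both. That last call was lost without any 1 of young replicate 2 or 4 or aged replicate 2 or 4 of experiment 1 or aged replicate 3 of experiment 2 (adjusted p = 0.0569 to 0.0991). Limma-voom called Col8a1 neither in experiment 1 (1.73, adjusted p = 0.0501) nor over both (0.82, adjusted p = 0.114). With the replicate number as a block, edgeR did not call it in either (1.67, adjusted p = 0.0721 and 0.89, adjusted p = 0.152). Col8a2 was called in neither experiment (0.08 ± 0.28 and 0.56 ± 0.22, SE).

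Among FACIT collagens, Col14a1 (ENSMUSG00000022371, chr15:55307750-55520803, plus strand), which binds the surface of fibrils, stood at 22.3, 26.5, 18.5, 31.3 and 37.3 CPM in young, 10.5, 12.7, 14.4 and 24.1 CPM in aged and 14.6, 15.4, 14.6 and 12.7 CPM in TRi-1 ovaries. In libraries of experiment 2 the gene stood at 70.9, 45.7, 32.8, 29.1 and 18.7 CPM in young, 48.0, 26.0, 29.9, 17.2 and 40.7 CPM in aged and 49.8, 47.2, 29.6 and 9.21 CPM with auranofin. Aged replicate 4 alone reached the young range in experiment 1, and groups overlapped in experiment 2. Col14a1 fell with age in experiment 1, with a log2 fold change of -0.82 ± 0.26 (SE, adjusted p = 0.023), not called in experiment 2 (-0.28 ± 0.43 SE, adjusted p = 0.761). The call was lost without young replicate 5 or aged replicate 1 or 2 (adjusted p = 0.0632 to 0.0672). Col9a2, Col12a1, Col16a1 and Col20a1 were tested and not called in either experiment, their log2 values running from -2.16 (Col9a2) to 0.90 (Col20a1).

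Col15a1 (ENSMUSG00000028339, chr4:47208161-47313167, plus strand) and Col18a1 (ENSMUSG00000001435, chr10:77052178-77166548, minus strand) are the multiplexins, basement membrane collagens that carry sugar chains, and the end of the Col18a1 product is the fragment endostatin. Col15a1 stood at 25.6, 40.9, 31.1, 38.3 and 42.7 CPM in young, 17.5, 33.4, 34.4 and 43.7 CPM in aged and 21.6, 38.5, 22.2 and 22.1 CPM in TRi-1 ovaries. The values of experiment 2 were 122, 21.5, 41.7, 33.6 and 32.5 CPM in young, 106, 58.0, 78.0, 41.8 and 52.6 CPM in aged and 101, 129, 128 and 8.40 CPM with auranofin. All groups overlapped, and auranofin replicate 4, high in adipocyte markers, was the lowest of the 27 libraries.

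Col18a1 stood at 30.7, 25.1, 27.1, 50.0 and 31.5 CPM in young, 49.9, 37.7, 41.4 and 52.7 CPM in aged and 35.6, 47.5, 26.1 and 31.3 CPM in TRi-1 ovaries. Experiment 2 gave 129, 57.7, 67.8, 40.3 and 42.6 CPM in young, 57.2, 46.4, 34.0, 42.1 and 49.3 CPM in aged and 43.9, 50.9, 79.1 and 28.6 CPM with auranofin. Neither multiplexin was called with age: Col15a1 gave -0.14 ± 0.26 and 0.42 ± 0.57, and Col18a1 0.46 ± 0.22 and -0.56 ± 0.33 (SE). Slc19a1, a gene on the other strand that overlaps Col18a1, held 3671 counts over all libraries.

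Over both experiments in 1 fit of 27 libraries, 3 collagen genes were higher and 7 lower with age of 35 tested, beside 35.3% of 17484 genes (17.5% higher, 17.8% lower). Those higher were Col4a2 (0.73 ± 0.17 SE, adjusted p = 0.00119), Col6a5 and Col8a1. Those lower were Col11a1 (-2.96 ± 0.49 SE, adjusted p = 3.19e-05), Col4a4 (-1.41 ± 0.23 SE, adjusted p = 2.29e-05), Col4a5 (-0.75 ± 0.19 SE, adjusted p = 0.00327), Col4a3 (-2.44 ± 0.83 SE, adjusted p = 0.0228), Col3a1 (-0.83 ± 0.31 SE, adjusted p = 0.04), Col1a2 and Col6a6. In this fit too Col4a3 passed the filter through the young libraries, where it was high, and its call cannot be parted from that. Without the 2 libraries low in ovary markers there were 5 higher and 6 lower of 38, beside 36.8%. Col3a1 (-0.75, adjusted p = 0.0695) and Col4a3 (-1.97, adjusted p = 0.0712) were then no longer called, and Col6a1 (higher), Col9a2 (lower) and Col10a1 (higher) were. Col10a1 was at 0 in 5 of 5 young libraries of experiment 1 and 4 of 5 of experiment 2. Col10a1 passed the filter only through aged and treated libraries. Col9a2 passed it through the young libraries, the group where it was high, so its call cannot be parted from that. Col3a1 was also lost over both experiments without any 1 of 8 libraries, from -0.62 (adjusted p = 0.115) without young replicate 1 of experiment 2 to -0.83 (adjusted p = 0.0521) without young replicate 4 of experiment 1. Col4a3 was lost without young replicate 3 of experiment 2 (-1.97, adjusted p = 0.0629). A further fit left out young replicate 1 of experiment 2 beside the 2 libraries low in ovary markers (33.9% of all genes called). Col3a1 (-0.34, adjusted p = 0.375), Col4a3 (-2.11, adjusted p = 0.0652), Col6a6 (-0.57, adjusted p = 0.0536) and Col8a1 (0.96, adjusted p = 0.0629) were not called there. Limma-voom did not call Col3a1 over both (-0.63, adjusted p = 0.0664).

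Age values followed base composition when taken over all genes. Over all genes of experiment 1, the median log2 fold change with age went from -0.33 in the 20% of genes with the lowest GC content over the last 1000 bases of the transcript to 0.44 in the highest 20%. For experiment 2 it went from -0.27 to 0.16. The 6 collagen genes lower with age in experiment 1 had a median GC content of 35.4%, the 6 higher 42.0% and the 19 not called 48.0%. Thus the median of the higher collagen genes lay below that of the genes not called, unlike the order over all genes. With GC content and transcript length corrected, 6 were higher and 3 lower, beside 31.5% of all genes. Col3a1, Col4a4, Col4a5 and Col6a1 were then lost, Col12a1 was gained (1.09, adjusted p = 0.0211), and Col1a2 stood at -1.46 (adjusted p = 0.0067), Col11a1 at -1.69 (adjusted p = 0.00408) and Col4a2 at 1.16 (adjusted p = 0.000315). For experiment 2 the correction left 1 higher and 2 lower, beside 9.04% of all genes: Col4a3 was lost (-3.45, adjusted p = 0.0717) and Col11a1, Col4a4 and Col6a5 were kept. Over both experiments it gave 5 higher and 5 lower of 35, beside 32.1% of all genes, of which 7 were also called without it. Col3a1 (-0.49, adjusted p = 0.221), Col4a3 (-2.01, adjusted p = 0.0614) and Col4a5 (-0.35, adjusted p = 0.158) were lost there, and Col5a2 (0.72, adjusted p = 0.00826), Col12a1 (0.79, adjusted p = 0.0489) and Col9a2 (-2.22, adjusted p = 0.0199) were gained. The call of Col9a2 cannot be parted from the way it passed the filter, through its young libraries.

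As a share of all counts, collagen genes made up 0.263% ± 0.0375 in young (SD, n = 5), 0.223% ± 0.0508 in aged (n = 4) and 0.198% ± 0.0554 in TRi-1 ovaries (n = 4) of experiment 1. The share in experiment 2 was 0.598% ± 0.375 in young (n = 5), 0.365% ± 0.0822 in aged (n = 5) and 0.521% ± 0.291 in auranofin ovaries (n = 4). Counts are not per length, so no order between genes is read from shares. Within the collagen counts of experiment 1, fibrillar chains made up 65.9% ± 3.45 in young, 44.3% ± 7.44 in aged and 46.6% ± 7.07 in TRi-1 ovaries (SD). Type IV chains made up 11.0% ± 3.06, 21.3% ± 4.66 and 18.3% ± 4.72, and type VI chains 16.3% ± 1.41, 25.2% ± 2.64 and 24.1% ± 2.89. No aged library of experiment 1 reached the young range for the fibrillar share. In experiment 2 the fibrillar share was 68.5% ± 7.79 in young, 61.6% ± 6.85 in aged and 55.8% ± 13.7 in auranofin ovaries, and the groups overlapped. Col1a2 alone made up 13.8% ± 1.41 of collagen counts in young and 5.05% ± 2.51 in aged ovaries of experiment 1, and 16.5% ± 2.46 and 9.48% ± 3.47 in experiment 2. The 2 libraries low in ovary markers held 1.06% and 0.853% collagen counts, young replicate 1 held 0.944%, and auranofin replicate 4, high in adipocyte markers, held 0.146%, with a fibrillar share of 35.5%. These shares are descriptions with no test.

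**Figure D4:**
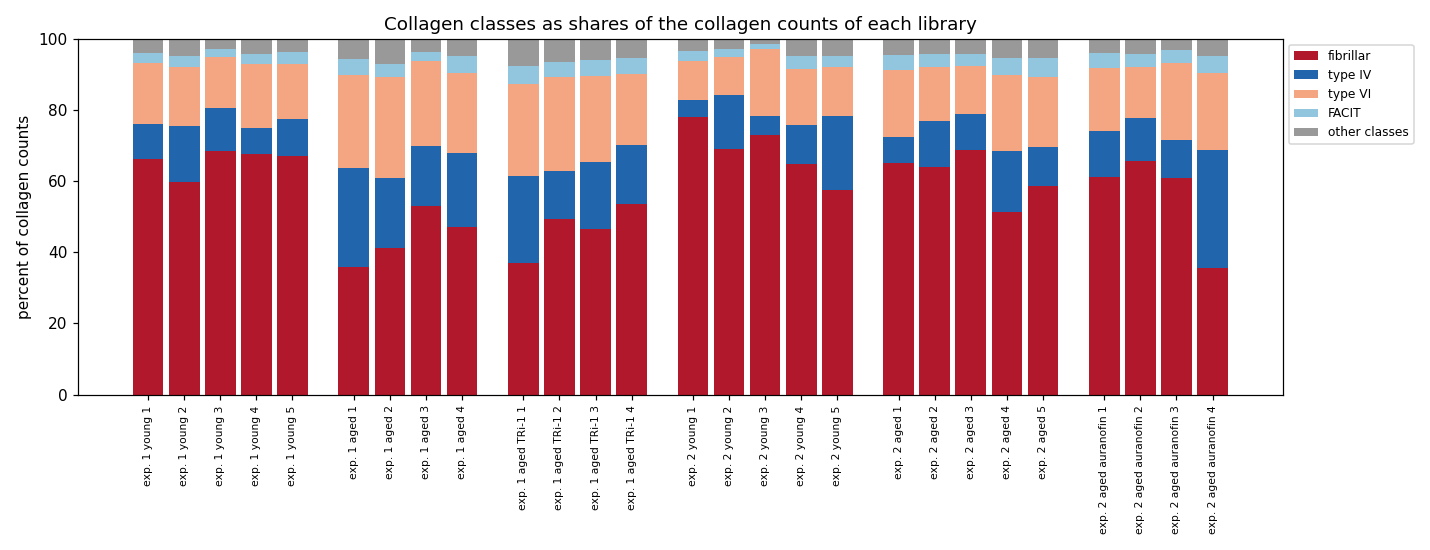
Percent of the collagen counts of each library (vertical axis, 0 to 100) that fell on fibrillar, type IV, type VI, FACIT and other collagens, 1 bar per library. The fibrillar part is 59.9% or more in each young library of experiment 1 and at most 53.1% in each aged one.

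TRi-1 was compared with the same aged ovaries that entered the age comparison of experiment 1, so the 2 comparisons share 4 libraries. No collagen gene passed (0 of 31, edgeR, beside 0.418% of 16028 genes), 7 of the 31 had an unadjusted p under 0.05 (16.5% of all genes), and DESeq2 called 2 (3.73% of all genes) and limma-voom 1 (0.605%). The median log2 fold change was -0.24, beside 0.00 over all genes, and 19 of the 31 lay below 0, a count not made over all genes. The smallest p was that of Col4a2 (-0.93 ± 0.22 SE, adjusted p = 0.065), with means of 75.8 ± 7.87 CPM against 144 ± 34.9 CPM (SD, n = 4 each) and no overlap. DESeq2 (adjusted p = 0.00492) and limma-voom (adjusted p = 0.0482) both called it, and so did edgeR with no filter (adjusted p = 0.0475) or with genes of at least 5 CPM (adjusted p = 0.0493). Col6a1 (-0.95 ± 0.26 SE, adjusted p = 0.0978) was called by DESeq2 alone (adjusted p = 0.0157). The other 5 were Col5a2 (-0.72 ± 0.23 SE, adjusted p = 0.139), Col6a2 (-0.78 ± 0.28 SE, adjusted p = 0.178), Col4a1 (-0.81 ± 0.30 SE, adjusted p = 0.198), Col4a5 (0.77 ± 0.31 SE, adjusted p = 0.228) and Col5a1 (-0.69 ± 0.28 SE, adjusted p = 0.234). Col4a5 was the one of these with the higher value under TRi-1, and its groups did not overlap either. Side by side, aged against young and TRi-1 against aged gave 1.42 and -0.93 for Col4a2, 0.88 and -0.95 for Col6a1, and -0.90 and 0.77 for Col4a5. The same 4 aged libraries enter these 2 comparisons with opposite sign, so opposite values alone do not show that TRi-1 reversed an age effect. The fibrillar chains that were lower with age gave 0.30 ± 0.39 (Col1a2), -0.31 ± 0.30 (Col3a1) and -0.24 ± 0.43 (Col11a1) under TRi-1 (SE). Over all genes the GC trend ran the other way from that of age, with medians of 0.17 in the lowest 20% of genes by GC content and -0.23 in the highest.

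Auranofin was compared with the 5 aged ovaries of experiment 2, which the age comparison there also used. No collagen gene passed (0 of 34, edgeR, beside 0.0184% of 16309 genes), 2 had an unadjusted p under 0.05 (7.04% of all genes), and DESeq2 and limma-voom called 0 (0.466% and 0.202% of all genes). The median was 0.42, beside 0.02 over all genes, and 27 of 34 lay above 0, among them all 6 type IV and all 6 type VI genes. Signs were not counted over all genes, so these counts are not read as particular to collagen genes. Without the 2 libraries low in ovary markers the median was 0.13 and 23 of 34 lay above 0, with 6 of 6 type IV genes but 4 of 6 of type VI, where Col6a2 (-0.09) and Col6a4 (-1.54) lay below 0. The 2 with an unadjusted p under 0.05 were Col4a1 (0.90 ± 0.26 SE, adjusted p = 0.46), with means of 490.4 ± 88.1 CPM (SD, n = 4) against 263 ± 57.5 CPM (n = 5), and Col4a2 (0.64 ± 0.27 SE, adjusted p = 0.672), with 154 ± 41.9 CPM against 98.8 ± 13.6 CPM. Neither gene's groups overlapped. With those libraries left out they stood at 0.76 (adjusted p = 0.488) and 0.45 (adjusted p = 0.712), and no collagen gene was called, beside 0.0179% of genes. For Col1a1 the value was 0.57 ± 0.59, for Col1a2 0.42 ± 0.60, for Col3a1 0.31 ± 0.53 and for Col6a3 1.02 ± 0.86 (SE). Smooth muscle and pericyte markers, 12 genes summed, ran from 1265 to 5318 CPM in the auranofin group and from 917 to 3355 CPM in the aged group, with the highest value in replicate 3, the library low in ovary markers. Their part in these values was not tested.

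**Figure D5:**
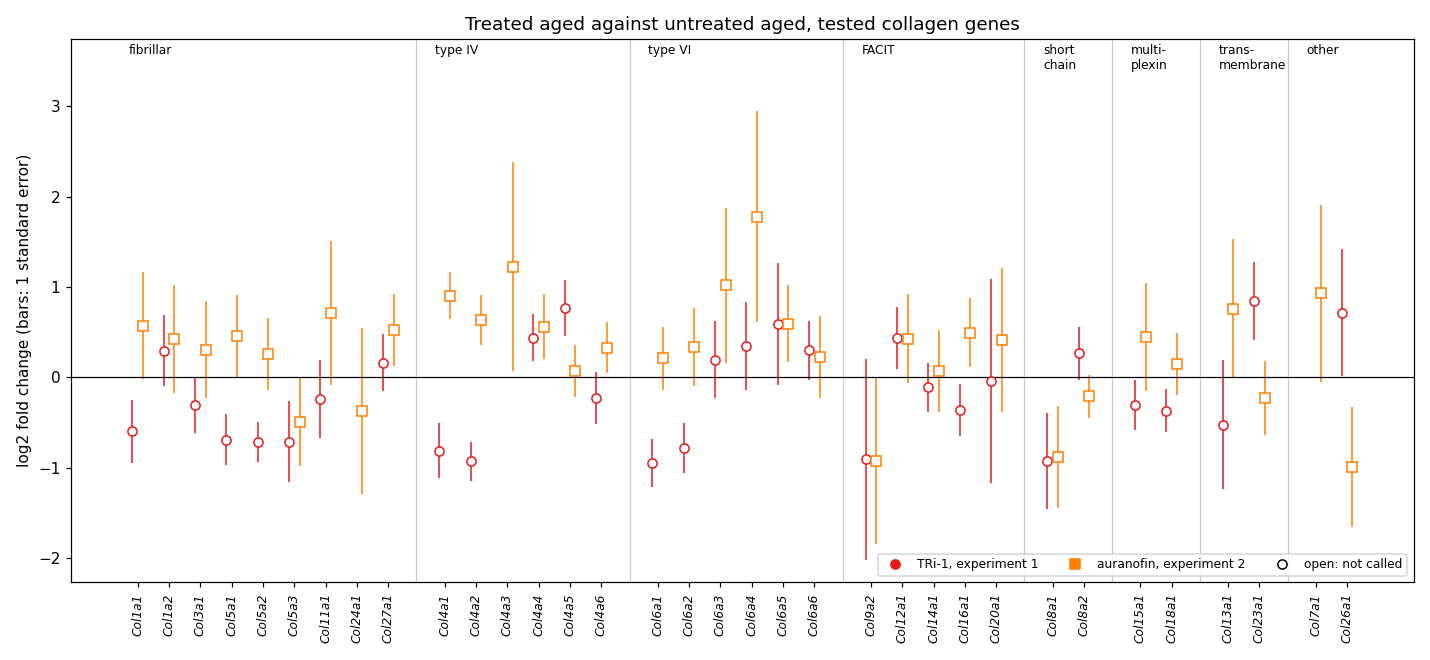
Log2 fold change of treated against untreated aged ovaries (vertical axis, bars 1 standard error) for each collagen gene tested, by class, for TRi-1 in experiment 1 (circles) and auranofin in experiment 2 (squares). All symbols are open since none passed edgeR's adjusted p of 0.05. Col4a1 and Col4a2 lie below 0 with TRi-1 (-0.81 and -0.93) and above 0 with auranofin (0.90 and 0.64).

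The difference between the drug effects, auranofin minus TRi-1, was tested in the fit of all 27 libraries. No collagen gene passed (0 of 35, edgeR, beside 0.0172% of 17484 genes), 4 had an unadjusted p under 0.05 (10.9% of all genes), and DESeq2 called 2 (0.572% of all genes) and limma-voom 1 (0.172%). The 4 were Col4a2 (1.56 ± 0.35 SE, adjusted p = 0.129), Col4a1 (1.70 ± 0.41 SE, adjusted p = 0.164), Col6a1 (1.15 ± 0.45 SE, adjusted p = 0.346) and Col6a2 (1.12 ± 0.54 SE, adjusted p = 0.459). DESeq2 called Col4a2 (adjusted p = 0.0128) and Col4a1 (adjusted p = 0.0212), and limma-voom called Col4a2 (adjusted p = 0.0392). Without the 2 libraries low in ovary markers edgeR called none, beside 0.0279% of all genes, and none with GC content and length corrected, beside 0.0744%. Doses and times are not in the labels and the drugs were given in separate experiments, so drug and experiment cannot be told apart in this difference.

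The collagen genes with and without a TGGTGCT match in the 3′ UTR were set side by side, with no test. With age in experiment 1, 4 of 18 tested genes with a match were higher and 4 lower, and 2 of 13 without one were higher and 2 lower. With age in experiment 2 the counts were 0 and 3 of 21 with a match, and 1 and 0 of 13 without. Of these 3, Col4a3 passed the filter through its young libraries. Over all genes tested, 18.5% were higher and 16.4% lower in experiment 1, and 5.86% and 4.59% in experiment 2. Genes with a match outside the collagen genes were not counted by call. Median log2 values under TRi-1 were -0.33 with a match and 0.27 without, and under auranofin 0.45 and 0.23.

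Other genes of the collagen pathway were counted from lists, to be read beside the 18.5% of all genes higher and 16.4% lower with age in experiment 1 and the 5.86% and 4.59% in experiment 2. Among the 15 hydroxylases and glycosyltransferases of the chains, 1 was higher and 1 lower with age in experiment 1. The galactosyltransferase gene Colgalt1 rose (1.65 ± 0.17 SE, adjusted p = 6.86e-06), and the lysyl hydroxylase gene Plod2, whose product prepares chains for crosslinking, fell (-1.55 ± 0.23 SE, adjusted p = 9.73e-05). In experiment 2 Plod3, another lysyl hydroxylase, rose (0.85 ± 0.21 SE, adjusted p = 0.0149), the sole one called of 15. Of 10 chaperones and export factors, 2 fell in experiment 1, the endoplasmic reticulum proteins Pdia3 (-1.08 ± 0.19 SE, adjusted p = 0.000416) and Hspa5 (-0.76 ± 0.22 SE, adjusted p = 0.0134), and 0 in experiment 2. Of genes that cut the propeptides, 2 of 4 tested rose in experiment 1, the procollagen C-proteinase Bmp1 (1.00 ± 0.30 SE, adjusted p = 0.0167) and its enhancer Pcolce2 (0.76 ± 0.29 SE, adjusted p = 0.0476), and 0 of 5 in experiment 2.

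Of 5 crosslinking enzymes tested, 3 rose with age in experiment 1, where 18.5% of all genes did, and 1, Loxl1, in experiment 2, where 5.86% did. Loxl1, a lysyl oxidase, rose in both (0.84 ± 0.22 SE, adjusted p = 0.00706 and 1.12 ± 0.17 SE, adjusted p = 0.000709), from 98.4 ± 16.2 CPM to 177 ± 48.2 CPM and from 95.6 ± 10.3 CPM to 208 ± 23.6 CPM (SD). Lox (0.88 ± 0.31 SE, adjusted p = 0.035) and the transglutaminase Tgm2 (1.22 ± 0.26 SE, adjusted p = 0.00216) rose in experiment 1. Of 14 fibril-binding proteoglycans and glycoproteins, 5 rose and 3 fell in experiment 1, and 1 rose and 2 fell in experiment 2. Biglycan (Bgn) rose in experiment 1 (1.65 ± 0.25 SE, adjusted p = 0.000122), osteomodulin (Omd) fell in both (-2.36 ± 0.42 SE, adjusted p = 0.000452 and -2.08 ± 0.57 SE, adjusted p = 0.0277), and fibronectin (Fn1) rose in both (3.35 ± 0.44 SE, adjusted p = 3.67e-05 and 2.30 ± 0.41 SE, adjusted p = 0.00232). Among the collagen receptors tested, 2 of 9 rose in experiment 1 and 1 of 9 in experiment 2, the leukocyte receptor Lair1 in both (2.31 ± 0.34 SE, adjusted p = 9.73e-05 and 2.03 ± 0.35 SE, adjusted p = 0.00169).

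Of 10 genes of collagen breakdown tested, 7 rose with age in experiment 1, beside 18.5% of all genes, and 4 in experiment 2, beside 5.86%, with none lower (edgeR). Macrophage markers were higher in the same comparisons (10 of 11 in each), and their part in these lists was not tested. The list holds inhibitors too, and Timp3 (0.90 ± 0.18 SE, adjusted p = 0.00129) rose in experiment 1 and Timp1 (2.06 ± 0.53 SE, adjusted p = 0.021) in experiment 2. Mmp9, a gelatinase, rose in both (1.48 ± 0.31 SE, adjusted p = 0.00147 and 1.79 ± 0.35 SE, adjusted p = 0.00384), Mmp2, another gelatinase, in experiment 1 (1.09 ± 0.24 SE, adjusted p = 0.00266), and Mmp8, a collagenase of neutrophils, in experiment 2 (2.58 ± 0.64 SE, adjusted p = 0.0163). Of 12 basement membrane partners, 1 rose and 1 fell in experiment 1 and 2 fell in experiment 2, with nidogen Nid1, which links laminin to type IV collagen, lower in both (-1.17 ± 0.28 SE, adjusted p = 0.00453 and -1.98 ± 0.36 SE, adjusted p = 0.0027). Under TRi-1 1 gene of these 8 lists was called, Fn1 (-2.36 ± 0.46 SE, adjusted p = 0.0393), and under auranofin none (edgeR, beside 0.418% and 0.0184% of all genes). Fn1 stood at 715 ± 541 CPM in aged and 140 ± 68.9 CPM in TRi-1 ovaries (SD). Without aged replicate 3 or TRi-1 replicate 1 or 4, or with only the 2 groups compared in the fit, no gene at all was called under TRi-1.

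Members too low for the filter were 13 in experiment 1, namely Col2a1, Col4a3, Col7a1, Col9a1, Col9a3, Col10a1, Col11a2, Col17a1, Col19a1, Col22a1, Col24a1, Col25a1 and Col28a1. In experiment 2 there were 10, the same without Col4a3, Col7a1 and Col24a1. Over all 27 libraries Col2a1, the cartilage collagen, had 11 counts, Col17a1, a hemidesmosome protein of skin, 21, and Col10a1, the collagen of growing cartilage, 132, while Col9a1 had 0. Nt5dc1, which overlaps Col10a1 on the other strand, held 2899 counts. Of the tested members not described so far, Col13a1 and Col23a1 (transmembrane) were called in no comparison (0.43 ± 0.68 and -0.39 ± 0.41 with age in experiment 1, SE). Col26a1 (-0.98 ± 0.61 with age in experiment 2, SE) and the skin anchoring fibril gene Col7a1 (-0.91 ± 0.94, SE) were likewise not called. Col25a1, another transmembrane chain, passed the filter only in the fit of both experiments, with 142 counts in all.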

How the data were processed

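Counts of 3′ tag reads per gene (QuantSeq libraries of polyA RNA, 1 per mouse ovary sample) were used as the authors deposited them, 1 table of whole-number counts over 51789 Ensembl gene IDs and 27 libraries. RSEM (version 1.2.3), DESeq2 and the mouse build mm10 are named, with no role, per the submitters' processing notes. The annotation, strand setting and read filters are not given in the sources used here. Because tags come from 3′ ends, counts are not divided by length and levels are compared within a gene only.

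Symbols, biotypes and coordinates came from GENCODE M21 (GRCm38), which named 51596 IDs. Members and gene lists were chosen with earlier results of these data known, and the list of uterus genes after library values were seen. Values in every library are given for 10 main members whatever their result and for each member called within an experiment, with the 4 smallest p-values of each pathway list available for naming. Mitochondrial genes held 0 counts.

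The 3 groups of an experiment were fitted together (13 and 14 libraries) with edgeR 4.0.16 (TMM, filterByExpr, quasi-likelihood test, Benjamini-Hochberg adjustment over all genes tested, threshold 0.05) in R 4.3.3, and all 27 libraries together for age over both experiments and for differences between effects. SE was taken from F, as the absolute log2 fold change over its square root. Log2 count ratios per library were compared with exact 2-sided permutation tests (scipy 1.17.1). The fits were tested on simulated data. Alternatives were DESeq2 1.42.0, limma-voom (limma 3.58.1) with quality weights, other size factors and filters, each library left out, and the replicate number as a block. Alternatives chosen after seeing the data left out the 2 libraries low in ovary markers, alone or with young replicate 1 of experiment 2. Offsets for GC content of the last 1000 bases and for transcript length were likewise chosen after seeing the data. Libraries of a group differed by more than sampling noise, so none was counted as a copy. The labels do not say how the mice were housed or bred, so p-values measure the spread between these samples. Promoter and microRNA sequences are from RefSeq (GRCm38.p6), and figures were drawn with matplotlib 3.10.9 (Python 3.11.15).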

Additional observations from a re-analysis of the deposited data

Results flagged for a closer look

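In 10 of 114 groups of 4 or 5 libraries, the highest or lowest library lay far from the others of its group by Dixon's 95% criterion, which chance meets in about 1 of 20 groups. Of the 10, 4 were in young replicate 3 of experiment 2, a library low in ovary markers. It held 614 CPM of Col6a2 (the next highest young library 254), 526 CPM of Col6a1 (213), 52.4 CPM of Col6a6 (16.1) and 7.17 CPM of Col4a3 (1.73). Auranofin replicate 4, the library highest in adipocyte markers, was low in Col5a2 (24.9 CPM, the next lowest 105). Col15a1 was high in TRi-1 replicate 2 (38.5 CPM, the next highest 22.2) and in young replicate 1 of experiment 2 (122 CPM, the next highest 41.7). Young replicate 4 of experiment 1 was high in Col18a1 (50.0 CPM, the next highest 31.5), and aged replicate 1 of experiment 1 in Col6a5 (58.7 CPM, the next highest 14.5). Young replicate 2 of experiment 2 held 108 CPM of Col11a1 (the next highest 21.9).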

How the results depend on the processing

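The count of collagen genes called with age in experiment 1 was 12 (34.9% of all genes were called), and 7 (3 higher, 4 lower; 24.5% of all genes) with 3 libraries left out together (TRi-1 replicate 1, young replicate 5 and aged replicate 3). With the replicate number as a block it was 6 (2 higher, 4 lower, 25.7% of all genes). The labels do not say that the numbers pair mice. Same-numbered libraries of different groups correlated above 0.1 in 0 of 12 pairs in experiment 1, beside 9 of 44 pairs with different numbers. In experiment 2 these were 6 of 13, beside 16 of 52. With the block, edgeR called Col1a2 with age in experiment 2 (-1.35, adjusted p = 0.0187) and lost Col4a3 (-3.93, adjusted p = 0.0866), where 9.12% of all genes were called. For TRi-1 the count of 0 (0.418% of all genes) became 2 with DESeq2 (3.73%) and 1 each with limma-voom (0.605%), with no filter (0.64%) and with genes of at least 5 CPM (1.56%). For the difference of age effects it became 1 with DESeq2 (0.881% of all genes), and for the difference of treatment effects 2 with DESeq2 (0.572%) and 1 with limma-voom (0.172%). With age in experiment 2 the 4 calls were 6 with DESeq2 (14.5% of all genes) and 5 with limma-voom (16.2%). Leaving out 1 library gave 9 to 12 calls with age in experiment 1 (29.4% to 34.0% of all genes), 3 to 4 in experiment 2 (7.27% to 12.5%) and 8 to 13 over both (32.1% to 37.3%). It gave 0 to 1 for TRi-1 (1 without young replicate 3 or aged replicate 2), 0 to 1 for the difference of age effects (1 without young replicate 4 of experiment 2), and 0 for auranofin, for the difference of treatment effects and for the ratios. Of 1909 alternative values for named genes and ratios, 1815 kept the side of the threshold, 84 lost a call, 10 gained one and 0 called values reversed. The sign changed in 64 values that were called on neither side. The cause of these changes was not tested.

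With 4 or 5 libraries a group, counting error is small for the main chains, while Col4a3 (199 counts in all) and the untested members are limited by depth. Coordinates of tags within a gene were not analysed here.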
